A study of Homo sapiens with 6 samples.

Results

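The enzymes that write DNA methylation and the core of Polycomb repressive complex 2 were measured in MCF10A cells that carried a short hairpin RNA (shRNA) against FRY or a non-targeting shRNA. The 8 genes were DNMT1, DNMT3A, DNMT3B, UHRF1, HELLS, EZH2, SUZ12 and EED, chosen by name. Every probe set whose only gene symbol in the platform's annotation was one of these genes was taken. This gave 17 probe sets, of 54613 probe sets other than controls on the array, and the 8 genes stand among 19775 genes that had a probe set of their own.

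DNMT1 copies the methylation pattern of the parental strand onto newly made DNA, UHRF1 recognises the half-methylated sites behind the replication fork and recruits DNMT1, and HELLS is a chromatin remodeller that opens packed DNA to methylation. DNMT3A and DNMT3B set methylation at sites that had none. EZH2, SUZ12 and EED form the core of Polycomb repressive complex 2 (PRC2), which methylates lysine 27 of histone H3 and keeps developmental genes off, and in many cell types UHRF1, HELLS and EZH2 are known targets of the E2F transcription factors that switch on genes for DNA replication.

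MCF10A is a non-tumorigenic line of human breast epithelial cells, and FRY encodes a large microtubule-associated protein that works with NDR kinases. The shFRY group held 3 cultures of 1 stable clone with the FRY-targeting shRNA, and the control group held 3 cultures of 1 stable clone with a non-targeting shRNA. Both clones came through puromycin selection and grew as monolayers in mammary epithelial medium with epidermal growth factor, insulin, hydrocortisone and pituitary extract, and the cultures of a group differed in passage number. The effect of the hairpin and the difference between the 2 clones cannot be told apart, and p-values measured only the spread between these cultures.

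The FRY probe set that passed the test, 204072_s_at, gave log2 signals of 2.88, 3.31 and 3.14 in shFRY cells and 4.23, 3.55 and 3.81 in control cells. It was lower in every shFRY culture (log2 difference -0.75, SE 0.19, limma adjusted p = 0.0223), and the other 3 FRY probe sets had negative differences that did not pass, between -0.49 and -0.32. The brightest of the FRY probe sets, 214319_at, was among these 3, and its groups overlapped (log2 difference -0.49, limma adjusted p = 0.203). The 6 arrays had medians between 3.02 and 3.06, and 3.04 was the median of all values. Pearson's r over probe sets was 0.992 to 0.995 within groups and 0.972 to 0.978 between them. All 16 measured mammary epithelial markers lay above the median signal in every culture, as did none of 10 immune markers, 1 of 10 endothelial, 1 of 8 adipocyte and 3 of 10 fibroblast markers. Of the epithelial markers 10 rose and 2 fell, where 13.7% of all genes, dim ones included, rose and 16.0% fell. The median difference of these markers was 0.52, and their mean was 10.67 to 10.81 in shFRY cells and 10.10 to 10.15 in control cells. The mean of the fibroblast list was 3.11 to 3.24 in shFRY cells and 3.80 to 4.01 in control cells, with LUM, DCN and COL3A1 lower and FAP higher, and the part of these 2 differences in the results that follow was not tested. In whole-culture RNA, fewer cells of a kind and less RNA per cell cannot be told apart.

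All values are log2 signals of a probe set, differences are shFRY minus control, and a call means an adjusted p under 0.05 from limma over the whole table. Of the 17 probe sets, 6 fell and 1 rose. Over all probe sets 23.1% were called, 12.2% lower and 10.9% higher. The 6 that fell were 4 of HELLS and 1 each of UHRF1 and EED, and since the HELLS probe sets read the same transcripts they are not separate observations. The groups did not overlap in 8 of the 17, which is 47.1%, against 39.2% of all probe sets. With each gene represented by its brightest probe set, 3 of the 8 genes fell (UHRF1, HELLS and EED), where 16.0% of all genes fell. None of the 8 rose by limma, with 1 higher at an unadjusted p under 0.05. Over all genes 13.7% rose and 29.8% were called in all. These shares include dim genes, while 7 of the 8 members lay above the median signal in every culture. In a limma fit without the dimmer probe sets, 5855 of 11859 genes were called, against 5889 of 19775 over all genes. In that fit 3 member genes fell and 1 rose. The falls were 35.3% of the 17 probe sets and 37.5% of the 8 genes. The shares over all genes are no background of like signal, so they cannot show whether the members held an excess of calls.

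**Figure D1:**
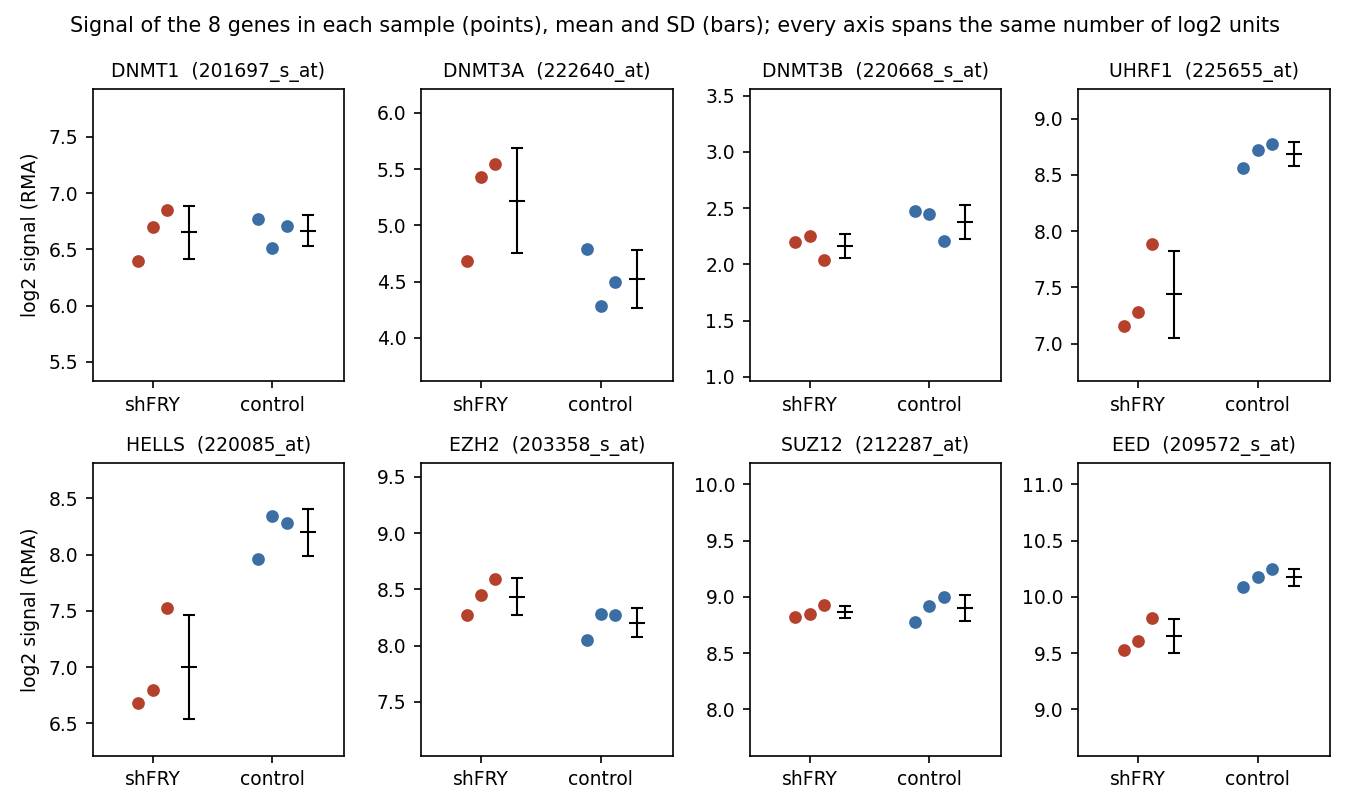
Log2 signal of the brightest probe set of each of the 8 genes in each culture, with the shFRY cultures left of the control cultures in each panel, points for single cultures and bars for the mean and SD (n = 3 per group). The shFRY cultures lay below all control cultures for UHRF1, HELLS and EED, and the groups overlapped for the other 5 genes.

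UHRF1 and HELLS, which act with DNMT1 at replicating DNA, were the members with the largest falls, while the signal of DNMT1 was nearly equal in both groups. UHRF1 had signals of 7.15, 7.28 and 7.88 in shFRY cells and 8.56, 8.72 and 8.77 in control cells. Every shFRY culture lay below every control culture, and replicate 3 lay nearest to the control range. The mean was 7.44 ± 0.39 in shFRY cells and 8.69 ± 0.11 in control cells (SD, n = 3 each), a 2.38-fold lower level (log2 difference -1.25, SE 0.19, 95% interval -1.68 to -0.82, limma adjusted p = 0.00203). Among 19775 genes, 493 had a more negative difference than UHRF1.

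HELLS was read by 5 probe sets. The brightest, 220085_at, gave 6.68, 6.80 and 7.53 in shFRY cells and 7.96, 8.35 and 8.28 in control cells, and again the third shFRY culture was the highest of its group without reaching the controls. Its log2 difference was -1.20 (SE 0.22, limma adjusted p = 0.00573), a 2.29-fold lower level. Probe set 227349_at gave 4.55, 4.45 and 4.72 in shFRY cells and 6.01, 6.03 and 6.02 in control cells, and it had the smallest adjusted p of the members (log2 difference -1.45, SE 0.11, limma adjusted p = 7.16e-05). The 4 brighter HELLS probe sets fell by 1.06 to 1.45 on the log2 scale. The fifth, 234040_at, was below the median signal of the array and had a positive difference that did not pass, with 2.57, 2.58 and 2.88 in shFRY cells and 2.43, 2.52 and 2.18 in control cells (log2 difference 0.30, limma adjusted p = 0.164).

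DNMT1, the maintenance methyltransferase, had signals of 6.40, 6.70 and 6.85 in shFRY cells and 6.77, 6.51 and 6.71 in control cells. All control values lay within the shFRY range, and the log2 difference was -0.01 (SE 0.14, 95% interval -0.34 to 0.32, limma adjusted p = 0.958). The interval spans -21.2% to 24.4% in level, so a fall of the size of UHRF1's lies outside it. Taken within each culture, the UHRF1 signal minus that of DNMT1 shifted by -1.23 and that of HELLS minus DNMT1 by -1.18, with no overlap between groups in either. An exact two-sided permutation test gave p = 0.1 for each, the smallest that 3 cultures against 3 allow, and 0.113 after adjustment over the 9 within-culture pairs examined.

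The promoters of UHRF1, HELLS, DNMT1, EZH2 and EED are shown because UHRF1 and HELLS fell and hold an E2F word, DNMT1 and EZH2 hold one and were not called, and EED fell and holds none in the window. Each line gives 250 bases before to 50 after a RefSeq transcript start on GRCh38.p14, read 5′ to 3′ on the gene's strand, with E2F words in capitals. The words searched on both strands were TTTCCCGC, TTTCGCGC, TTTGCCGC and TTTGGCGC. The UHRF1 window is chr19:4909251-4909550 on the plus strand, HELLS chr10:94545538-94545837 on the plus strand, DNMT1 chr19:10194904-10195203 on the minus strand, EZH2 chr7:148884242-148884541 on the minus strand and EED chr11:86244503-86244802 on the plus strand.
UHRF1: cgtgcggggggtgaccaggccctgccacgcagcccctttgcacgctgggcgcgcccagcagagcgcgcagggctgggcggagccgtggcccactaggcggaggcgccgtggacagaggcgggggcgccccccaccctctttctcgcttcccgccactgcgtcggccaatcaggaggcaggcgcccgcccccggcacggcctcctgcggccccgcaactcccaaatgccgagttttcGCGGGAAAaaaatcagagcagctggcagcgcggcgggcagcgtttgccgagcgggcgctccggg
HELLS: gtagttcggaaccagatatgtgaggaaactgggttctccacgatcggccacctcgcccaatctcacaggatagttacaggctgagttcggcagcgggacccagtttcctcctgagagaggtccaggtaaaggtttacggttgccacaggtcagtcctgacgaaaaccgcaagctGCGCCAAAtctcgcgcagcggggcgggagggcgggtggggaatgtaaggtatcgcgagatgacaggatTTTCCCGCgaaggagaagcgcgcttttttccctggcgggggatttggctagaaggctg
DNMT1: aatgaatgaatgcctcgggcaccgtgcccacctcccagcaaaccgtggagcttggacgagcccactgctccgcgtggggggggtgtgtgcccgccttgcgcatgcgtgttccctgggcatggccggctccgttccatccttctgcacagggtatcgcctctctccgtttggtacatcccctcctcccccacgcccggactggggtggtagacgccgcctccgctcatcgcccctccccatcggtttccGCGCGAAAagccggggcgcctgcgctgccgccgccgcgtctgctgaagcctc
EZH2: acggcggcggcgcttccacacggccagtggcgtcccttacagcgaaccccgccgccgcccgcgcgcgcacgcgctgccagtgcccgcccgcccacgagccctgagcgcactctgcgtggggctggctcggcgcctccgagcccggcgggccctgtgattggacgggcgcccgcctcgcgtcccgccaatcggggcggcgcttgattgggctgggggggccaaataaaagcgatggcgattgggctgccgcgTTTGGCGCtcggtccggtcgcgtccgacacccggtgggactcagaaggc
EED: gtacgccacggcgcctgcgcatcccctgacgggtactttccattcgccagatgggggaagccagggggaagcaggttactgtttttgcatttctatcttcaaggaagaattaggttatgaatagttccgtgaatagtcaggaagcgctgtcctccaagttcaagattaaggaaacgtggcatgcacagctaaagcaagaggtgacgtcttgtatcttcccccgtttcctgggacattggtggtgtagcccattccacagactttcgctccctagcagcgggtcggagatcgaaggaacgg

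Of 35116 such windows in the RefSeq table, 3.31% held one of the 4 words, and of 27305 genes, 3.99% had a window that did. Among the 8 members, 5 had one (DNMT1, UHRF1, HELLS, EZH2 and SUZ12), and none was found in the windows of DNMT3A, DNMT3B and EED. HELLS held 2, at -76 to -69 and at -8 to -1 from the start, UHRF1 had 1 at -14 to -7 and another in a second window at -160 to -153, DNMT1 had 1 at -2 to 6 and EZH2 had 1 at 2 to 9. Members with such a word were found both among the genes that fell (UHRF1 and HELLS) and among those that were not called (DNMT1, EZH2 and SUZ12). In a list of 25 DNA replication and S phase genes, 21 were in the table and 15 of these had the word (71.4%). Each of the words holds a CpG, a C followed by a G. Member windows with a word had observed over expected CpG of 0.874 (DNMT1) to 1.1 (EZH2). The median over all windows was 0.579, and the share among windows of like CpG content was not computed. A match of letters is a description of the sequence and shows no binding.

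**Figure D2:**
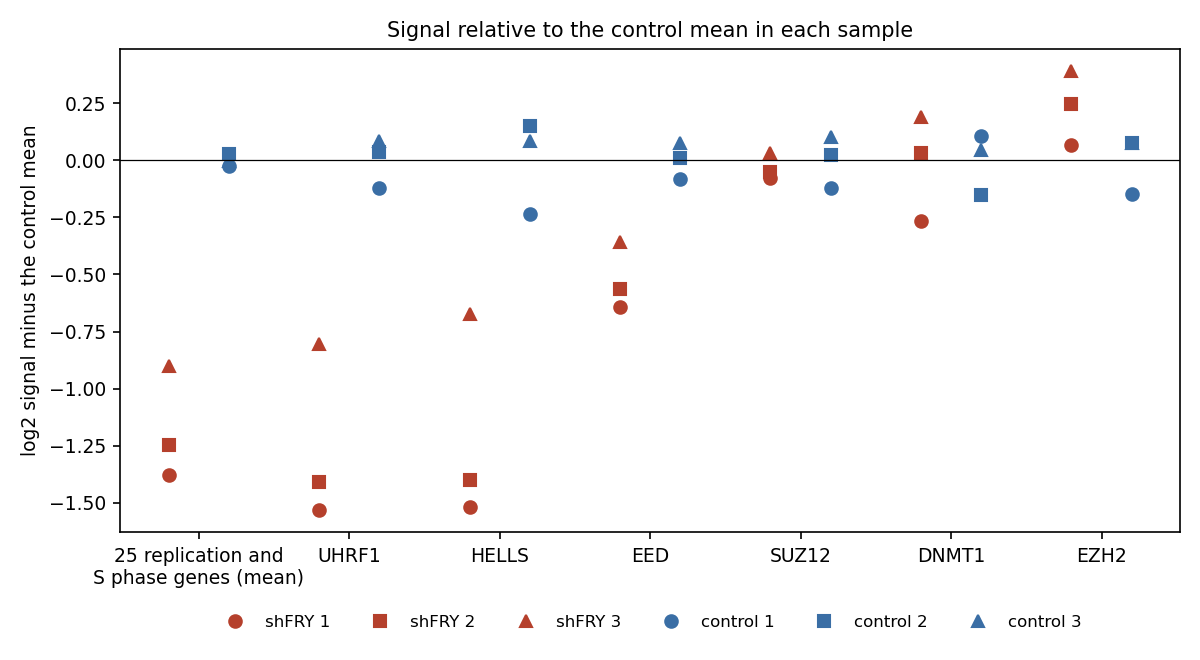
Log2 signal minus the control mean, for the mean of the 25 S phase genes and for UHRF1, HELLS, EED, SUZ12, DNMT1 and EZH2, with shFRY cultures left of control cultures and 1 point per culture. UHRF1 and HELLS lay close to the S phase list mean in every culture, EED moved less, and DNMT1, EZH2 and SUZ12 lay nearer 0.

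The S phase list included the replicative helicase, the GINS complex and PCNA, the clamp that travels with the fork. Of its 25 genes, 19 fell and none rose (no gene was higher at an unadjusted p under 0.05). All 25 lay above the median signal in every culture. Of all genes, dim ones included, 16.0% fell and 13.7% rose. The median difference of the list was -1.20, against 0.03 over all genes. The largest falls were those of CCNE2 (-3.88) and CCNE1 (-2.80), the cyclins of S phase entry, and of GINS3 (-2.02), GINS1 (-1.83) and PCNA (-1.77). The list mean was 6.91, 7.04 and 7.39 in shFRY cells and 8.26, 8.31 and 8.28 in control cells. The third shFRY culture was again the highest of its group. With the brightest probe sets this held for every member other than DNMT3B, so it was not particular to the genes that fell. With the 3' minus 5' measure of beta-actin as a covariate, a sign of RNA length that moved with the group, 8 of the 25 were called lower.

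Measured against this list mean within each culture, UHRF1 differed between groups by -0.07 and HELLS by -0.02, and in both the groups overlapped. The other members stood higher relative to the list in shFRY cells, EED by 0.65, DNMT3B by 0.96, SUZ12 by 1.14, DNMT1 by 1.16, EZH2 by 1.41 and DNMT3A by 1.87, with no overlap. The list mean itself shifted by -1.17, so a gene with equal signal in both groups stands higher by as much. These values therefore restate each member's own difference and are no separate result. Each member is compared with the mean of the list only. Single genes of the list ranged from CCNE2 (-3.88) to CDC6 (0.04, limma adjusted p = 0.830), which was named after its value was seen. The genes whose centred values over the 6 cultures were most like those of UHRF1 were DLGAP5, a spindle protein, MCM4, a subunit of the replicative helicase, and CPOX, an enzyme of haem synthesis, with root mean square distances of 0.0463, 0.0577 and 0.0577. For HELLS they were CPOX, DLGAP5 and UHRF1, at 0.0719, 0.0789 and 0.0819. Many genes were close, with 226 within 0.2 of UHRF1 and 113 of HELLS. Of all genes, dim ones included, 16.0% fell and 13.7% rose. Among 20 mitosis genes, each above the median signal in every culture, 12 fell and none rose. Their median was -0.41, and 1 was higher at an unadjusted p under 0.05. The falls included CCNA2 (-1.38), KIF20A (-1.31), DLGAP5 (-1.23), CCNB1 (-0.88) and NUSAP1 (-0.87). The count of falls was 7 without control replicate 2 and 1 with the covariate.

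Of the de novo methyltransferases, DNMT3A rose with 1 of 3 probe sets and DNMT3B did not pass the test. DNMT3A probe set 218457_s_at gave 5.09, 5.05 and 5.11 in shFRY cells and 3.93, 3.95 and 4.15 in control cells. All shFRY cultures lay above all controls, and the signal was 2.11-fold higher (log2 difference 1.07, SE 0.11, limma adjusted p = 0.000268). The brighter DNMT3A probe set, 222640_at, gave 4.69, 5.43 and 5.54 in shFRY cells and 4.79, 4.28 and 4.50 in control cells. Here the first shFRY culture lay among the controls, and the test was not passed (log2 difference 0.70, SE 0.23, 95% interval 0.16 to 1.23, limma adjusted p = 0.0659). Without that culture the difference was 0.96 with a limma adjusted p of 0.00785. The third probe set, 244428_at, was below the array's median (log2 difference 0.15, limma adjusted p = 0.464).

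DNMT3B had signals of 2.20, 2.25 and 2.04 in shFRY cells and 2.48, 2.45 and 2.21 in control cells, all below the median signal of the array. Its log2 difference was -0.21 (SE 0.12, 95% interval -0.49 to 0.06, limma adjusted p = 0.252), and the lowest control culture lay within the shFRY range. DNMT3L, which stimulates the de novo enzymes in germ cells, was as dim, with means of 2.13 ± 0.15 in shFRY cells and 2.03 ± 0.16 in control cells (SD, n = 3 each). The summary method of these arrays compresses log2 differences of such dim probe sets. Within each culture, DNMT3A 222640_at minus DNMT3B shifted by 0.91 with no overlap, and the exact two-sided permutation p was 0.1, or 0.113 after adjustment over the 9 pairs, and 3 cultures against 3 cannot give a smaller p than 0.1.

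**Figure D3:**
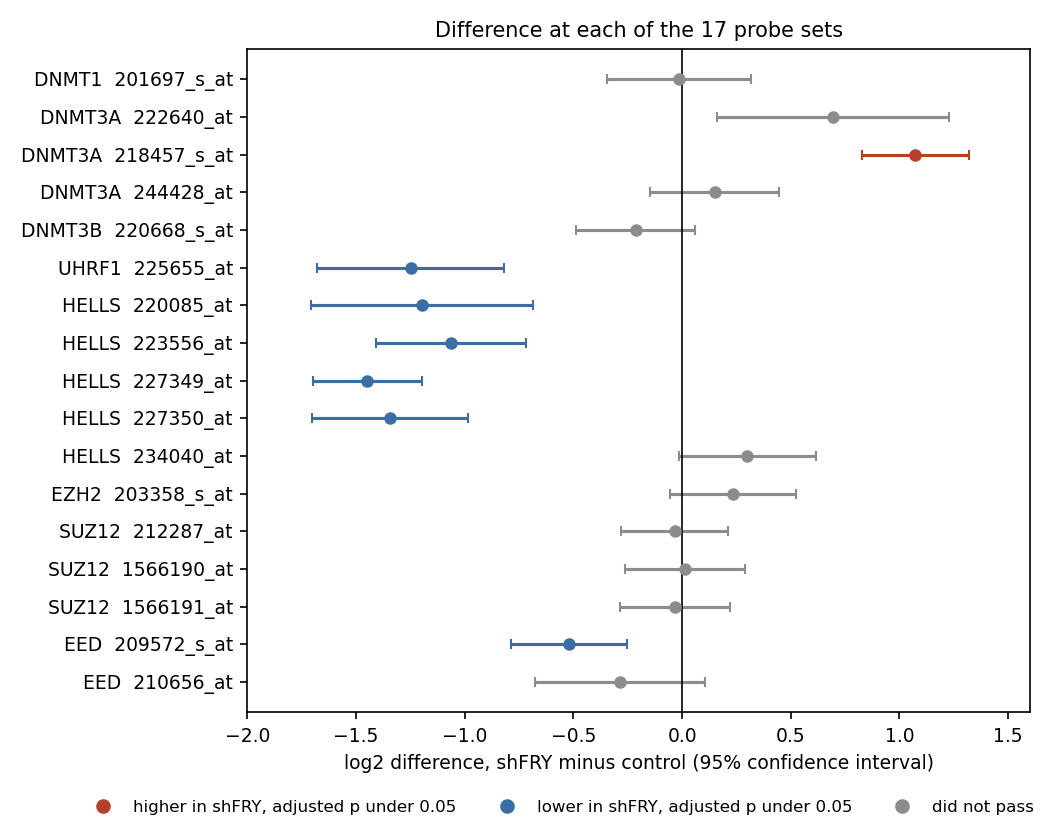
Log2 difference, shFRY minus control, of all 17 probe sets with 95% intervals from limma (n = 3 per group). The UHRF1 probe set, 4 of 5 HELLS probe sets and the brighter EED probe set lay below 0, DNMT3A 218457_s_at lay above 0, and the other probe sets were not called.

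Among the PRC2 core, EED fell while EZH2 and SUZ12 did not pass the test. EED, the subunit that binds trimethylated lysine 27 and stimulates the complex, gave 9.53, 9.61 and 9.82 in shFRY cells and 10.09, 10.18 and 10.25 in control cells with probe set 209572_s_at. Its mean was 9.65 ± 0.15 in shFRY cells and 10.17 ± 0.08 in control cells (SD, n = 3 each). The groups did not overlap, and the level was 30.3% lower (log2 difference -0.52, SE 0.12, 95% interval -0.79 to -0.25, limma adjusted p = 0.0131). Among all genes, 2416 had a more negative difference. Without control replicate 3 the limma adjusted p was 0.0504 for this probe set. The second EED probe set, 210656_at, was below the array's median and did not pass (log2 difference -0.29, limma adjusted p = 0.280), and EED was not called (adjusted p = 0.264) where probe sets ending in _s_at and _x_at were left out, since that dim probe set then stood for it. The genes whose values were most like those of EED were KCTD12, RRP1B and LACTB2, at distances of 0.0247, 0.0281 and 0.0303, and 2741 genes lay within 0.2.

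EZH2, the methyltransferase of the complex, had signals of 8.27, 8.45 and 8.59 in shFRY cells and 8.05, 8.28 and 8.27 in control cells. The lowest shFRY culture lay within the control range, and the log2 difference was 0.23 (SE 0.13, 95% interval -0.05 to 0.52, limma adjusted p = 0.233). SUZ12, the scaffold subunit, had 8.82, 8.85 and 8.93 in shFRY cells and 8.78, 8.92 and 9.0 in control cells with probe set 212287_at, a log2 difference of -0.03 (SE 0.11, 95% interval -0.28 to 0.21, limma adjusted p = 0.865). The other 2 SUZ12 probe sets were below the array's median and differed by 0.02 and -0.03. SUZ12 has a pseudogene copy, SUZ12P1, and 1 probe set naming both was left out, so its values are less certain. Within each culture, EED minus EZH2 was 1.26, 1.16 and 1.23 in shFRY cells and 2.04, 1.91 and 1.97 in control cells, a shift of -0.76. EED minus SUZ12 shifted by -0.49 and EZH2 minus SUZ12 by 0.27, and the groups did not overlap in any of these 3 pairs. The exact permutation p was 0.1 for each, the smallest possible, and 0.113 after adjustment over the 9 pairs. Of those 9 pairs, all except EZH2 minus EZH1 had no overlap, so this was not particular to PRC2.

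The 3' and 5' control probe sets of beta-actin differed by 2.88, 2.89 and 2.84 in shFRY cells and 2.33, 2.52 and 2.71 in control cells, a separation with no overlap. The same measure for GAPDH was -0.07 in shFRY cells and -0.09 in control cells, and overlapped. With the beta-actin measure as a covariate the estimates were -1.34 for UHRF1 (adjusted p = 0.129), -1.37 for HELLS 220085_at (adjusted p = 0.179), -0.63 for EED (adjusted p = 0.230) and 0.87 for DNMT3A 218457_s_at (adjusted p = 0.0736), all by limma. HELLS 227349_at remained called (-1.42, limma adjusted p = 0.0245). Since the measure separated the groups, the median SE of the 8 genes was 0.261 with it and 0.131 without it.

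Homologues of UHRF1 and EZH2 were measured beside them. UHRF2, which resembles UHRF1 in domains but does not replace it in maintenance, was 8.26, 8.48 and 8.49 in shFRY cells and 7.39, 7.57 and 7.65 in control cells (log2 difference 0.87, SE 0.12, limma adjusted p = 0.00132). The groups did not overlap, and within each culture UHRF1 minus UHRF2 shifted by -2.12. EZH1, the other PRC2 methyltransferase, did not pass with its brightest probe set (0.23, limma adjusted p = 0.292), and of its 5 probe sets 1 rose and 1 fell. EZH2 minus EZH1 shifted by 0.00 with overlap.

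The other genes of DNA methylation were split. For this list and those that follow, the shares over all genes were 16.0% lower and 13.7% higher. These shares include dim genes, so they are no background of like signal for lists of mostly bright genes. Of 18 measured partners, suppliers of the methyl donor and readers, 5 rose and 4 fell, with a median difference of -0.02, and the count of falls was 2 without control replicate 1 or 2 and 1 with the beta-actin covariate or without probe sets ending in _s_at and _x_at. The count of rises was 1 with the covariate. MBD1, which binds methylated CpG and represses, rose in all 5 of its probe sets, by 1.75 in the brightest (limma adjusted p = 2.60e-05 in the fit over genes, used for all lists). Its signal there was 9.24, 9.08 and 8.90 in shFRY cells and 7.27, 7.33 and 7.35 in control cells, far apart. PCNA (-1.77), MBD3 (-0.75), a subunit of the NuRD complex, and CDCA7 (-0.67, adjusted p = 0.0335), the partner that recruits HELLS to nucleosomes, fell. CDCA7L, its paralogue, also fell (-0.49) and was named after its value was seen. HELLS minus CDCA7 shifted by -0.52 within cultures.

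Of 10 genes of DNA demethylation, 4 rose and 4 fell, with a median of 0.13. With the beta-actin covariate 1 rose and 1 fell, and without probe sets ending in _s_at and _x_at 2 fell. TET2 (0.51) and TET3 (0.60), which oxidise methylated cytosine, rose, each in 2 of 3 probe sets. TET1 fell (-1.07), but its means of 1.37 ± 0.22 in shFRY cells and 2.44 ± 0.43 in control cells (SD, n = 3 each) lay below the median signal, and its other probe set differed by 0.00. GADD45A, a stress gene also linked to demethylation, rose by 2.23 (limma adjusted p = 3.12e-06), and GADD45B rose by 0.58. IDH1 (-1.27) and IDH2 (-0.40), which make the cofactor of the TET enzymes, and APEX1 (-0.74), the endonuclease of base excision repair, fell. The IDH2 call was made over genes but by neither of its 2 probe sets over all probe sets.

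Of 12 PRC2 accessory genes, 4 fell and 1 rose, with a median of 0.03. EPOP (-1.0), PHF19 (-0.66), which binds methylated lysine 36, and the histone chaperones RBBP4 (-0.50) and RBBP7 (-0.44), which PRC2 shares with other complexes, fell, and LCOR, whose locus also encodes a PRC2 subunit, rose (0.42). The LCOR call was lost without shFRY replicate 1 or 3 and without control replicate 1 or 3, and with the beta-actin covariate. Of 21 PRC1 subunits, 7 fell and 5 rose, with a median of -0.13. CBX2 (-1.70), a reader of the PRC2 mark, BCOR (-1.11) and CBX6 (-1.03) fell, and PHC2 (1.20) and YAF2 (0.91) rose. The PHC2 call rests on 1 of 3 probe sets, that of CBX2 on 2 of 4 and that of ASXL2, a deubiquitinase cofactor, on 1 of 6. Of 10 genes that remove the Polycomb marks, 1 rose and 2 fell, with a median of 0.16. KDM6B, a lysine 27 demethylase, rose by 1.04 (limma adjusted p = 0.000245) and in 3 of 5 probe sets, with 6.91 ± 0.03 in shFRY cells and 5.87 ± 0.15 in control cells (SD, n = 3 each). KDM6A did not pass (0.10, limma adjusted p = 0.524), and USP22 (-0.53) and ASXL2 (-0.42) fell. This list had 1 fall without control replicate 1 or 3. With the beta-actin covariate, none of the PRC2 accessory, PRC1 and mark-removing genes was called lower by limma, and the rises numbered 1 among PRC1 genes and 1 among mark-removing genes.

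**Figure D4:**
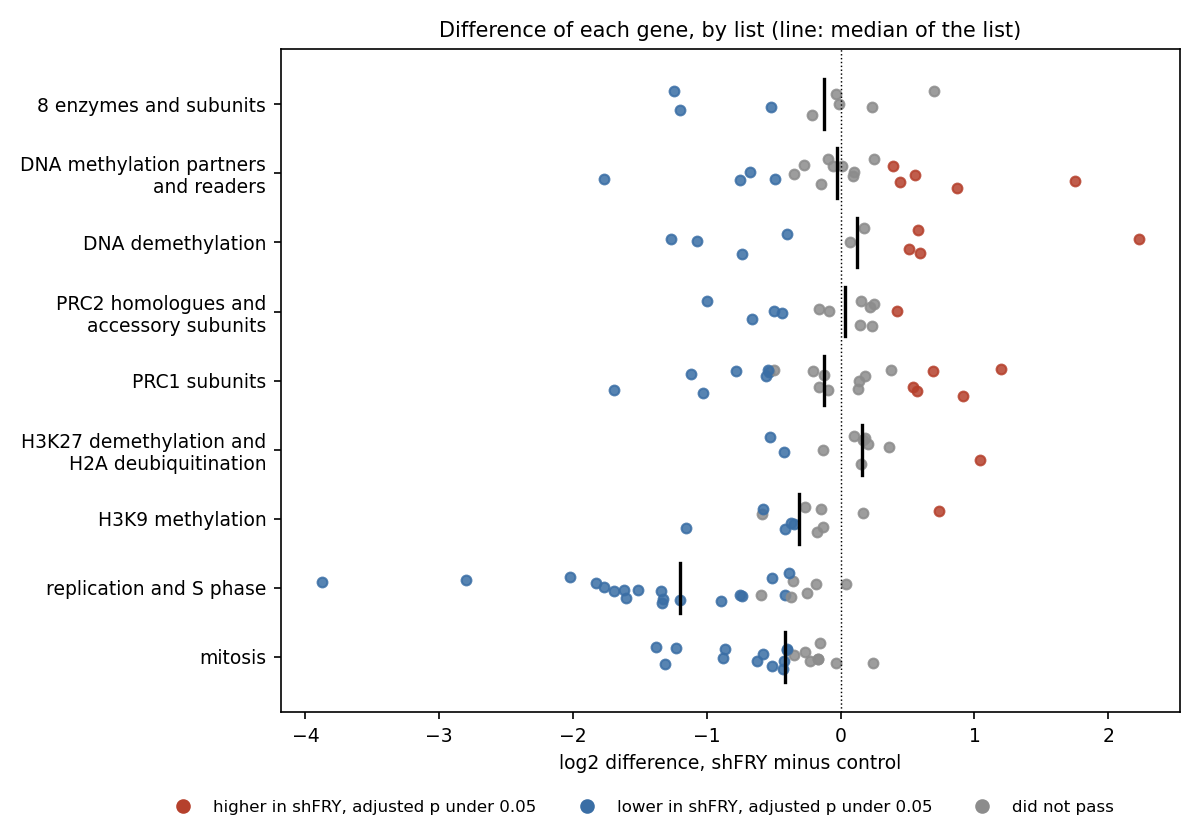
Log2 difference, shFRY minus control, of each measured gene of the lists, 1 point per gene, with the median of each list as a short line and calls by limma marked. The S phase list lay lowest with a median of -1.20, and the medians of the other lists plotted lay between -0.41 and 0.16.

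Genes that DNA methylation or Polycomb commonly keep silent were examined as readouts. Of 23 measured germline genes, 21 lay below the median signal in all cultures of both groups. Of these genes 1 rose and 1 fell, with a median of 0.06, and both calls, HORMAD1 (0.29) and TDRD6 (-0.92), were among dim probe sets. The HORMAD1 call was made over genes (limma adjusted p = 0.0498) but not by its only probe set over all probe sets. Leaving out shFRY replicate 1 or 2 or control replicate 1 or 3 left 0 rises by limma in this list. Of 31 measured developmental regulators that carry Polycomb marks in many cell types, 3 rose and 4 fell, with a median of 0.01, and 19 stayed below the median signal throughout. HOXC13 (-2.87), LHX2 (-1.95) and HOXC11 (-1.53) fell, and GATA6 (2.11) rose. The rises numbered 1 without shFRY replicate 2 or control replicate 3 and with the beta-actin covariate. HOXC13 averaged 2.94 ± 0.17 in shFRY cells and 5.81 ± 0.24 in control cells, and GATA6 averaged 6.18 ± 0.15 in shFRY cells and 4.07 ± 0.05 in control cells (SD, n = 3 each). CDKN2A was called higher by 0.49 at a dim signal of 2.60 in shFRY cells and 2.11 in control cells, below the array's median. Of its 3 probe sets, 1 was called higher over all probe sets. Whether the transcript was present at such a signal was not tested. Of 15 imprinted genes, GRB10 rose (2.04) and PEG10 fell (-1.28), with a median of 0.00, and 3 fell without shFRY replicate 1. No DNA methylation or histone mark was measured here, so these are transcript levels only.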

How the data were processed

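RNA from 6 cultures was measured on 1-colour expression arrays, 1 per culture. The deposited values are log2 signals made by RMA, per the submitters' processing notes, and the sources used here do not give its version or settings. RMA compresses differences of dim probe sets, and a change shared by all genes cannot be seen after it. Precision is limited by 3 arrays a group. The values were used as deposited. Of 54675 probe sets, 62 were controls, 41091 named 1 gene, 1801 several and 11721 none. Symbols came from the platform annotation and were updated through Entrez IDs to RefSeq genes of GRCh38.p14 (41037 matched).

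Groups were compared with limma 3.58.1 in R 4.3.3 (lmFit, eBayes, 4 residual degrees of freedom). The Benjamini-Hochberg adjustment ran over 54613 probe sets for members and homologues, and over 19775 genes, each represented by its probe set of highest mean, for lists. The procedure was tested on simulated data. A call is an adjusted p under 0.05. Likeness between genes is the root mean square difference of values centred per gene. Promoter windows came from the RefSeq tables. Protein sequences were not used here.

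The 8 members and the lists, which hold 273 genes of which 250 were measured, were chosen with earlier results of these data known. Named were all members, the targeted gene, homologues and opposing enzymes, every called gene of lists of up to 13 genes, up to 5 called genes with the largest differences of longer lists, and the 3 genes most like each called member. Alternatives were other scalings, limma options, array weights, a filter on dim probe sets, a replicate block, the beta-actin covariate, other ways to represent a gene and leaving out each culture.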

Additional observations from a re-analysis of the deposited data

How the results depend on the processing

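No called member value changed sign under the alternatives run. With the beta-actin measure as a covariate, 1 member probe set was called lower (6 as reported) and 0 higher (1 as reported, and 1 was higher at an unadjusted p under 0.05). In that limma fit 0 member genes were called lower, with 3 lower at an unadjusted p under 0.05, and 1026 genes were called in all, against 5889. The covariate separated the groups and widened the errors. DNMT3A decided the calls upward. Member probe sets called higher were 2 under another quantile normalization, limma's trend and robust options, the filter on dim probe sets and array weights. Leaving out each culture gave 1 to 2, with 2 without shFRY replicate 1. Member genes called higher were 1, against 0 as reported, under these 4 settings, under centring on the median and where each gene took the mean over its probe sets. Leaving out each culture gave 0 to 1, with 1 without shFRY replicate 1. With the replicate block, 6 member probe sets fell and 1 rose, and 3 member genes fell, so it left these counts as reported. The sample titles do not say whether equal replicate numbers mark a shared batch or passage. Cultures with the same number had deviations correlated at 0.00302, -0.00427 and 0.0388, and those with different numbers at -0.0293 to 0.0269. With 3 cultures a group these values cannot exclude a pairing. The block ended the calls of LCOR and HORMAD1, the 1 rise of each of their lists. Without control replicate 3, EED 209572_s_at was not called and the dim EED 210656_at was (-0.48, limma adjusted p = 0.0359). The 3 arrays a group and dim signals of DNMT3B, DNMT3L and TET1 limit what could be seen, and no protein, DNA methylation or histone mark was measured.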

Other observations

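Methylation of lysine 9 of histone H3 is a repressive mark that UHRF1 binds. Of 12 genes that write or read it, 5 fell and 1 rose, with a median log2 difference of -0.31, against 0.03 over all genes. The methyltransferases SUV39H1 (-1.15, limma adjusted p = 0.000147) and SUV39H2 (-0.58), the reader CBX5 (-0.42), the corepressor TRIM28 (-0.37) and ATF7IP (-0.35) fell, and SETDB2 (0.74) rose. SUV39H1 averaged 6.06 ± 0.08 in shFRY cells and 7.21 ± 0.12 in control cells (SD, n = 3 each), with no overlap. The SETDB2 rise was seen in 2 of its 6 probe sets and the ATF7IP fall in 2 of 4. Calls downward were 2 without shFRY replicate 2, 3 without control replicate 2 or 3 and 1 with the beta-actin covariate, under which SETDB2 was not called.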
